A study of Mus musculus with 18 samples.

Results

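Of 630 transcripts that the authors assembled from embryonic mouse cortex and that have no entry in Ensembl release 67, 346 overlap a protein-coding gene or end within 25000 bases of one on either strand, and these 346 are described here beside their nearest genes. Members were chosen by position, from the mm9 coordinates in the authors' tables, whose protein-coding genes had at least 1 read. The rule itself used no level or fold change. The other 284 unannotated transcripts lie farther away. The data are poly-A RNA counts of 3 fractions of cells, sorted out of C57BL/6 mouse lateral cortex at embryonic day 14.5 once meninges and ganglionic eminences had been removed. The embryos of all groups carried reporters at Btg2, an antiproliferative gene of progenitors that are about to form neurons, and at Tubb3, a tubulin of neurons. Cells negative for the Btg2 reporter are labelled proliferating progenitors (PP), Btg2-positive cells differentiating progenitors (DP) and Tubb3-positive cells neurons (Neuron). The titles name a red signal for the PP and DP gates and a green one for Neuron, whereas the genotype field has GFP at Btg2 and at Tubb3 alike. A library pools embryos of different litters, and each fraction has 3 libraries, so that 18 samples are 9 libraries with 2 sequencing runs each, whose counts were added.

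Long RNAs made beside a protein-coding gene fall into a few arrangements. An RNA that starts near a gene's own start and runs away from it on the other strand is called divergent or head-to-head, and many mammalian promoters give rise to RNA in both directions. An RNA that overlaps a gene on the other strand is called antisense. An RNA downstream of a gene on the same strand can be a separate unit or a continuation of the gene's own transcript, and short-read assembly alone does not tell these apart. Several transcription factor genes of the developing brain are known to have such neighbours.

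The stretch of DNA that a head-to-head pair shares is shown for 4 genes whose start lies less than 250 bases from the start of a member and that moved with it in at least 1 comparison below. They are 4 of 6 such genes with 1 RefSeq promoter window, and Dusp11 and Ank are not shown. Each sequence holds the 250 bases before the RefSeq start of the gene, 5′ to 3′ on the gene's strand, build GRCm38.p6, so that the member runs leftwards from within or near it. Capitals mark the GC box GGGCGG and the CCAAT box CCAAT, each searched on both strands; a search for the TATA box TATAAA, also on both strands, found no match in these 4. The first is Wnt7a, a secreted Wnt ligand (chr6:91411354-91411603, minus strand), whose start is 115 bases from XLOC_040392 in mm9. The others are Atp1b1, a subunit of the sodium pump (chr1:164458356-164458605, minus strand), 91 bases from XLOC_001300, Tmem107, a membrane protein of the primary cilium (chr11:69070559-69070808, plus strand), 93 bases from XLOC_008243, and Dync1h1, the heavy chain of cytoplasmic dynein (chr12:110601145-110601394, plus strand), 106 bases from XLOC_011450.
Wnt7a: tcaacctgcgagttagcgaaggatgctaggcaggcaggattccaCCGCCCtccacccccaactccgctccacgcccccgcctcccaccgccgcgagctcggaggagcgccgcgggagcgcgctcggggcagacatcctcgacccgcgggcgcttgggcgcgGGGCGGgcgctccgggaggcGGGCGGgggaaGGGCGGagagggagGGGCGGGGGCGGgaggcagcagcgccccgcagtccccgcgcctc
Atp1b1: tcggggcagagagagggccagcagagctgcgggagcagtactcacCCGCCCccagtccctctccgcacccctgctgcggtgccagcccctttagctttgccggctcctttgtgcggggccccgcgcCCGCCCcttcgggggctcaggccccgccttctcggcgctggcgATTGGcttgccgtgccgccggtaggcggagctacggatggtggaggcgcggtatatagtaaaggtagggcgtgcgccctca
Tmem107: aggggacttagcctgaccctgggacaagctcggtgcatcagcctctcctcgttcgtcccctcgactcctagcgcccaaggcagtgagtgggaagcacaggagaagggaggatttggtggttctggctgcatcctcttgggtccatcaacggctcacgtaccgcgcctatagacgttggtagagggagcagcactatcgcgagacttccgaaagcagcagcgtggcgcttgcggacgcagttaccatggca
Dync1h1: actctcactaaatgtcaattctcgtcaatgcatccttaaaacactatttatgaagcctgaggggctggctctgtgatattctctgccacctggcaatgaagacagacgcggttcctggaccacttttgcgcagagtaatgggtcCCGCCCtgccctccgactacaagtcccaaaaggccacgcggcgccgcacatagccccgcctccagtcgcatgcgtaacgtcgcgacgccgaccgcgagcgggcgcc

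The Wnt7a stretch held 6 GC boxes and 34 CG dinucleotides, the Atp1b1 stretch 2 GC boxes, 1 CCAAT box and 24 CG dinucleotides, the Dync1h1 stretch 1 GC box and 22 CG dinucleotides, and the Tmem107 stretch 17 CG dinucleotides with none of the 3 motifs. Of the stretches not shown, Dusp11 held 13 CG dinucleotides and none of the motifs, and Ank 49 with 2 GC boxes. Bases shortly behind the RefSeq start of Dync1h1 matched no GENCODE transcript of that gene, so its stretch may not end at the start used here. Of the 60 genes whose start lies under 1000 bases from that of a head-to-head member, 36 matched a RefSeq promoter by symbol, with 43 windows. In these the median number of CG dinucleotides was 22, a GC box stood in 76.7%, a CCAAT box in 34.9% and a TATA box in 4.65%. Over 15643 windows of protein-coding genes in the authors' table the median was 13 and the shares were 50.7%, 34.7% and 7.85%, and over all 32851 RefSeq windows they were 6, 32.7%, 33.8% and 12.4%. Around the nearest genes of overlapping members the median was 8 CG dinucleotides and a GC box stood in 47.8% of 69 windows. These are counts of letters, not of sites in use, and no test was made of them.

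Libraries held 34337209 to 55935128 counts, of which the 346 members took 71133 to 107552. Radial glial markers summed to 3586 to 4117 CPM in PP and 145 to 184 in Neuron (CPM, counts scaled to a common library total). Intermediate progenitor markers summed to 2489 to 3548 in DP against 1166 to 1195 in PP, and neuronal markers to 6691 to 7230 in Neuron against 108 to 264 in PP. The intermediate progenitor list includes Btg2 and the neuronal list Tubb3, the genes of the sort, so these sums are no independent check of the fractions. Of 3 red blood cell genes, 5308 to 9813 CPM stood in PP, 10.8 to 74.7 in DP and 5.56 to 8.62 in Neuron. Markers of interneurons reached 367 to 389 CPM in Neuron and those of Cajal-Retzius cells 788 to 900, against 26.9 to 149 and 42.5 to 52.2 in DP. The part of these other cells in the results was not tested. Changes were tested with edgeR's quasi-likelihood test over all 9 libraries, and a feature is called where the p-value, adjusted over 18627 features, is under 0.05. In sorted bulk samples fewer cells of a type and less RNA per cell cannot be told apart.

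Head-to-head transcripts were the commonest arrangement. They made up 117 of the 346 members (33.8%), with a median of 877 bases between the starts of transcript and gene and 60 of them under 1000 bases. A further 74 lay downstream on the same strand (median gap 8734 bases), 69 overlapped the gene on the opposite strand, 45 lay downstream on the opposite strand and 41 upstream on the same strand. No member overlapped its nearest gene on the same strand. Of the 69 overlapping members, 45 shared exonic bases with that gene, from 1.75% to 93.6% of the transcript's exonic length (median 18.2%, 7 over 50%). The sources used here do not state whether reads were counted by strand, so for these 45 the reads of transcript and gene cannot be told apart.

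The median member had 2 exons and 2309.5 exonic bases, with lengths up to 34653, and 2 members had 1 exon. The members named 325 different nearest genes: 19 genes had 2 members and 1 had 3. With the gene start in place of the gene body as the measure of distance, 73 members would have another nearest gene. The members nearest to the distance limit on its inner side were XLOC_020266, 24762 bases from 2210404J11Rik, and XLOC_035353, 24791 bases from Gm12695; on its outer side they were XLOC_027464, 25459 bases from Zfp64, and XLOC_021286, 25557 bases from Lrpprc. Their mean levels ran from 0.00893 to 0.238 CPM for the inner pair and from 0.0078 to 0.893 CPM for the outer pair.

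The members were much less abundant than their neighbours. Of the 346, 275 had enough reads to be tested; the other 71 had 8 to 79 reads over all libraries (median 36) and are not called in any direction. Tested members had a median level of 0.805 CPM, 126 reached 1 CPM and 22 reached 10 CPM. Set against length, as RPKM (CPM per 1000 exonic bases), the 242 members whose nearest gene was also tested had a median of 0.306 and the genes 10.8, and the median ratio of gene to transcript was 28.6. The ratio was 51.0 for head-to-head pairs, 33.1 for transcripts downstream on the same strand and 7.04 for overlapping pairs. In 22 of the 242 pairs the transcript stood above the gene.

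**Figure D1:**
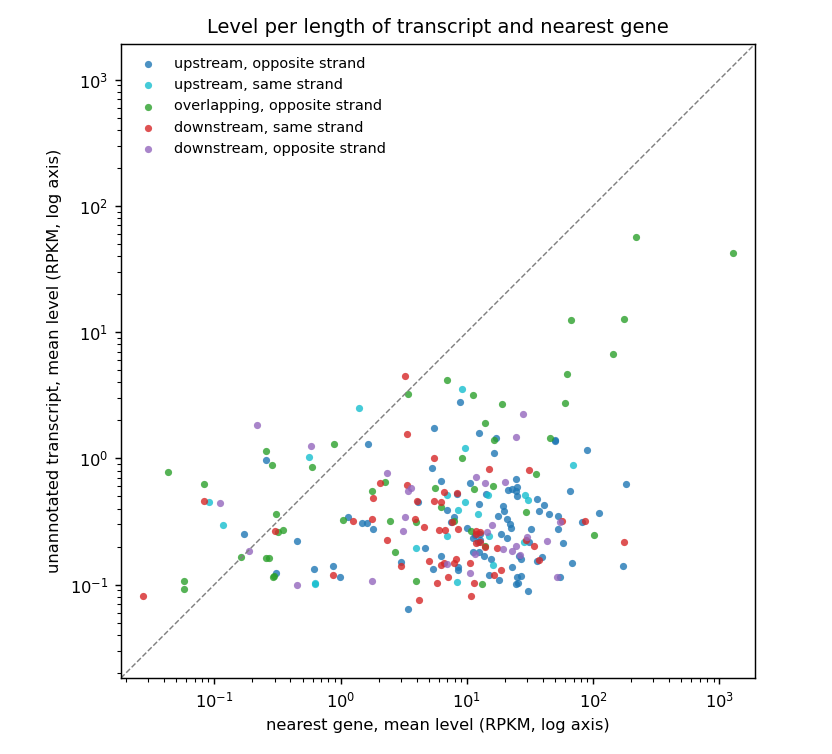
Mean level over the 9 libraries of the nearest gene (x axis) and of the unannotated transcript (y axis), both in RPKM on log axes, for the 242 pairs with both tested; colours give the position and the dashed line equal levels. Most points lie below the line, with 22 above it, and the plotted transcripts above 10 RPKM are overlapping ones.

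A few members held most of the reads. The 6 highest took 53.4% to 69.5% of the members' summed CPM in a library, and members that share exonic bases with the nearest gene took 39.2% to 59.2%. XLOC_037431 (mm9 chr5:112641867-112658774, plus strand, 3 exons) alone took 12.7% to 36.7%. It read 359, 206 and 300 CPM in PP, 893, 548 and 924 CPM in DP, with 337, 281 and 301 CPM in Neuron, so the DP libraries lay above all others. It rose 2.73-fold from PP to DP (adjusted p = 0.000249) and fell 2.57-fold from DP to Neuron (adjusted p = 0.000133). Its nearest protein-coding gene, the lens crystallin gene Cryba4, is 16739 bases away, was too low to test and had 0 reads in all 3 Neuron libraries.

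XLOC_037431 lies over Miat, an annotated long non-coding RNA on the minus strand (chr5:112642248-112657968), and 8423 bases, 57.5% of its exonic length, are also exonic in Miat. Miat read 1161, 922 and 1042 CPM in PP, 3342, 3573 and 4596 CPM in DP, with 2158, 1988 and 2152 CPM in Neuron. It rose 3.68-fold from PP to DP (adjusted p = 7.35e-07) and fell by 0.87 on the log2 scale from DP to Neuron (adjusted p = 5.44e-05). Both were highest in DP, and without knowledge of the strand used in counting their reads cannot be told apart. In all, 10 members overlap an annotated gene that is not protein-coding, each on the opposite strand, and 52 members share exonic bases with some annotated gene.

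Next in level came XLOC_012077, which overlaps Tubb2b, a tubulin of young neurons, with 287 ± 10.3 CPM in PP, 232 ± 59.4 in DP and 423 ± 60.5 in Neuron (SD, n = 3). It rose 1.83-fold from DP to Neuron (adjusted p = 0.000383), while Tubb2b was 3.08-fold higher (adjusted p = 8.14e-08). The shared exonic bases, 1706, are 22.9% of the transcript's exonic length but most of the 1922 exonic bases of Tubb2b. XLOC_012359 shares 93.6% of its exonic length with Hnrnpa0, an RNA-binding protein gene. It read 189 ± 25.3, 141 ± 38.3 and 94.6 ± 9.42 CPM in PP, DP and Neuron and fell 1.49-fold from DP to Neuron (adjusted p = 0.00866), a step in which Hnrnpa0 differed by 1.01-fold (adjusted p = 0.865). This call was lost when libraries L222, L223 and L224, 1 of each fraction, were left out together (-0.31 on the log2 scale in place of -0.58, adjusted p = 0.0783). XLOC_043112, 9 exons downstream of Zfp619 on the same strand, stood at 96.7 ± 4.12, 108 ± 10.2 and 108 ± 4.4 CPM and passed the test in neither step, though with the 3 sets of consecutive library numbers, each with 1 library of every fraction, as a block in the fit the adjusted p from PP to DP was 0.0315.

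Between PP and DP, 55 of the 275 tested members were higher in DP and 49 lower, 37.8% in all, beside a background of 41.4% over all 18627 features tested. Between DP and Neuron, 88 were higher in Neuron and 99 lower, 68.0% beside a background of 67.3%. Between PP and Neuron, the sum of these steps over the same libraries, 95 were higher in Neuron and 103 lower, 72.0% beside 75.3% (36.7% higher and 38.6% lower). The share of members called was thus near the background in each comparison. The median absolute log2 fold change of the members was 0.47, 1.13 and 1.47 in the 3 comparisons, that of the transcripts beyond the distance limit 1.34, 1.63 and 2.39, and that of all features 0.30, 0.60 and 0.79. Calls of at least 2-fold were made for 78 members (28.4%, background 13.9%) in the first comparison and for 149 (54.2%, background 33.5%) in the second. Of 209 tested transcripts beyond the distance limit, 103 and 137 had such calls, so an excess over all features is not particular to members near genes. Tested members had a median of 0.805 CPM and the tested far transcripts 0.569. The background of all features was not matched to them for level. Red blood cell genes fell from PP to DP, the step in which 49 members were lower. Interneuron markers (3 of 5 genes called higher from DP to Neuron) and Cajal-Retzius markers (2 of 2) were highest in Neuron, where 88 members were higher. The part of these cells in the calls was not tested.

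The directions were balanced for members near genes. From PP to DP 20.0% of the near members were higher and 17.8% lower, with 21.3% and 20.2% as background. Of the 209 tested transcripts beyond the distance limit, 78 were higher in DP (37.3%) and 37 lower (17.7%). From DP to Neuron 32.0% of the near members were higher and 36.0% lower (background 33.1% and 34.2%), against 41.1% and 31.1% of the far ones. By position, 15 of 58 tested transcripts downstream on the same strand were higher in DP than in PP and 9 lower, while 11 of 92 head-to-head transcripts were higher and 18 lower. These shares are descriptions, and the differences between positions were not tested.

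The highest fold changes from PP to DP among members of at least 1 CPM in the higher group, with no overlap of the groups, belonged to 8 transcripts whose neighbours have unlike functions. XLOC_012115, antisense within F13a1, the gene of coagulation factor XIII, read 0.0805, 0.0427 and 0.0205 CPM in PP, 0.777, 1.24 and 1.62 in DP, with 0.843, 0.874 and 0.618 in Neuron. It rose 25.1-fold from PP to DP (log2 4.65 ± 0.461 SE, adjusted p = 1.25e-05), with 6 reads over the PP libraries. XLOC_019651, downstream of the ketone body enzyme gene Bdh1, went from 0.129 ± 0.0977 CPM in PP to 2.59 ± 0.678 in DP and 9.16 ± 1.29 in Neuron. It rose 20.9-fold from PP to DP (adjusted p = 4.29e-06) and a further 3.52-fold from DP to Neuron (adjusted p = 3.58e-05).

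XLOC_039991, upstream of Ccdc129 on the same strand, read 2.01, 1.2 and 0.924 CPM in PP, 18.8, 24.9 and 24.3 in DP, with 43.5, 35.5 and 37.2 in Neuron. It rose 16.8-fold from PP to DP (adjusted p = 2.95e-07) and Ccdc129 rose 15.0-fold (adjusted p = 2.05e-06), with no overlap between the groups in either. XLOC_018284 lies head-to-head with Accn2, an acid-sensing ion channel gene, 2547 bases apart. It went from 0.064 ± 0.0435 to 1.26 ± 0.453 and 3.37 ± 0.336 CPM over PP, DP and Neuron, a rise of 20.0-fold from PP to DP (adjusted p = 1.86e-05), and Accn2 was 5.07-fold higher in that step. The other 4 of the 8, beside Prmt8, Tmem38b, Plekhf2 and Rgs16, were 12.6- to 15.6-fold higher and are described below.

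By the same rule, the lowest fold changes from PP to DP were held by XLOC_034392 beside Prdm16, a zinc finger factor of radial glia (5.46-fold lower), and XLOC_022419, head-to-head with the kinase gene Pkdcc at 343 bases. The latter read 1.13, 1.64 and 2.1 CPM in PP, 0.282, 0.329 and 0.41 in DP, with 0.328, 0.244 and 0.386 in Neuron. It fell 4.77-fold from PP to DP (adjusted p = 9.45e-05) and did not pass the test from DP to Neuron (adjusted p = 0.801), where Pkdcc fell 2.33-fold. XLOC_017170, 14040 bases from the kinesin gene Kif21a, was 4.44-fold lower in DP than in PP (1.22 ± 0.277 against 0.273 ± 0.0325 CPM, adjusted p = 0.0009), while Kif21a was 1.26-fold higher. The remaining 5, beside Acbd6, Samd4, Grifin, Tuba1c and Alg14, were 2.78- to 3.48-fold lower.

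From DP to Neuron the highest fold change by that rule belonged to XLOC_042071, 13775 bases upstream of the potassium channel gene Kcna5. It had 3 reads over the PP libraries, 0.0471, 0.194 and 0.193 CPM in DP, with 5.92, 7.09 and 6.28 CPM in Neuron, a 43.0-fold difference from DP to Neuron (adjusted p = 4.58e-08). Kcna5 itself was too low to be tested, at 0.305 CPM or less in every library. XLOC_019209, upstream of the kinase gene Hunk, had 0.188, 0.233 and 0.265 CPM in DP, with 6.74, 5.63 and 6.0 in Neuron. It rose 26.5-fold (adjusted p = 4.82e-09) in a step in which Hunk rose 1.65-fold (adjusted p = 5.47e-07).

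Others that rose into Neuron were XLOC_009259 (31.8-fold), XLOC_031397 within Spata16 (25.3-fold) and XLOC_048051 beside Grtp1 (18.8-fold, with 7 reads in DP). XLOC_017029 lies head-to-head with Sult4a1, a brain sulfotransferase gene, at 734 bases. It read 0.0706, 0.0969 and 0.193 CPM in DP, with 0.936, 1.22 and 1.18 in Neuron, 9.21-fold higher (adjusted p = 1.06e-05), and Sult4a1 was 9.71-fold higher (adjusted p = 1.94e-09). XLOC_012261, 12242 bases from the semaphorin gene Sema4d, rose 13.8-fold from DP to Neuron and Sema4d 6.45-fold. From PP to DP transcript and gene were called in opposite directions. The transcript, with 2 reads in PP, rose by 2.1 on the log2 scale (adjusted p = 0.0434) and Sema4d fell. This call of the transcript was lost in 10 other settings, DESeq2 and each run type alone among them.

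Among members of at least 1 CPM in the higher group, the steepest fall into Neuron was that of XLOC_012201 (mm9 chr13:48123686-48139168), 9709 bases from 4931429P17Rik. It read 17.7, 18.4 and 23.6 CPM in PP, 19.9, 16.5 and 23.6 in DP, with 0.562, 0.325 and 0.206 in Neuron. It differed by 1.0-fold between PP and DP (adjusted p = 0.991) and fell 54.1-fold from DP to Neuron (adjusted p = 3.09e-09). XLOC_040792, 20833 bases from Apold1, had the same order: 8.19 ± 0.541 CPM in PP, 9.05 ± 1.56 in DP and 0.255 ± 0.145 in Neuron, a fall of 35.4-fold (adjusted p = 9.85e-09), with Apold1 6.34-fold lower. XLOC_019224 fell 33.5-fold, XLOC_037293 34.6-fold and XLOC_037531 28.2-fold, and XLOC_037293 and XLOC_037531 are described below with their nearest genes.

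XLOC_015732 was among the lowest in both steps. It starts 29 bases from Samd4, an RNA-binding repressor of translation, on the opposite strand. It read 3.84, 4.48 and 3.66 CPM in PP, 1.53, 1.14 and 0.965 in DP, with 0.0702, 0.0 and 0.0258 in Neuron (4 reads), so each group lay below the one before. It fell 3.29-fold (adjusted p = 0.000253) and then 36.3-fold (adjusted p = 1.5e-06). Samd4 went from 83.9, 101 and 88.3 CPM through 51.4, 36.3 and 37.1 to 1.69, 2.52 and 2.09 CPM and fell 2.19-fold and 19.7-fold in the same steps (adjusted p = 7.56e-05 and 1.73e-09). The ratio of transcript to gene did not pass the test in either step (adjusted p = 0.392 and 0.482).

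DP is the middle stage, and 22 of the 275 tested members (8.0%) were higher in DP than in both PP and Neuron, beside a background of 4.37% over all features; 5 (1.82%) were lower in DP than in both, beside 4.49%. With the sets of consecutive library numbers as a block, the 5 became 11. Of the 22, 17 had a tested nearest gene, and in 11 of these pairs the gene was higher in DP than in both as well. A further 22 members were higher at each step (8.0%, background 12.4%) and 29 lower at each step (10.5%, background 10.9%), and 50 passed the test in none of the 3 comparisons (18.2%, background 17.6%). The DP-high group included XLOC_001070, head-to-head with Btg2 at 2487 bases, the gene on whose reporter these cells were sorted. It read 0.456, 0.342 and 0.472 CPM in PP, 2.75, 2.87 and 3.38 in DP, with 0.609, 0.325 and 0.464 in Neuron.

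XLOC_001070 rose 7.05-fold from PP to DP (adjusted p = 4.59e-06) and fell 6.45-fold from DP to Neuron (adjusted p = 1.17e-06), with every DP library above every other. Btg2 was 1.99-fold higher and 5.26-fold lower in these steps, and the rise of the transcript exceeded that of the gene by 1.8 ± 0.287 SE on the log2 scale (adjusted p = 0.000311). Because the sort used Btg2, its own course is no finding. XLOC_001201, 3795 bases upstream of Rgs16, a regulator of G protein signalling, read 0.618, 0.427 and 0.349 CPM in PP, 5.09, 6.22 and 6.01 in DP, with 1.12, 0.528 and 0.876 in Neuron. It rose 12.6-fold and fell 6.89-fold (adjusted p = 1.81e-06 and 1.52e-06), while Rgs16 rose 4.93-fold and, at 103, 100 and 88.5 CPM in Neuron, did not pass the second test (1.12-fold, adjusted p = 0.242).

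XLOC_034518 lies 12324 bases downstream of Plekhf2, an endosomal protein gene, on the same strand. It read 2.95, 1.77 and 1.71 CPM in PP, 21.4, 33.9 and 32.9 in DP, with 11.6, 6.46 and 9.5 in Neuron. It rose 13.9-fold (adjusted p = 1.43e-06) and fell 3.21-fold (adjusted p = 7.09e-05). Plekhf2 moved the same way by less, 3.22-fold up and 1.63-fold down. The other member beside Plekhf2 was called lower from PP to DP and was not called from DP to Neuron. XLOC_013324, downstream of 4931429P17Rik, had 6 reads in PP, 48 in DP and 0 in Neuron. Among the 5 lower in DP, XLOC_045074 over Gm12776 read 1.5, 1.15 and 1.83 CPM in PP, 0.636, 0.542 and 0.724 in DP, with 1.52, 1.54 and 2.55 in Neuron, 2.37-fold lower and then 2.94-fold higher (adjusted p = 0.00395 and 0.000345).

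Transcript and nearest gene tended to move in the same direction. In the step from PP to DP both members of a pair passed the test in 62 of 242 pairs, and in 52 of these (83.9%) the direction was the same: 31 pairs higher in DP and 21 lower. In the step from DP to Neuron both passed in 136 pairs and 105 (77.2%) had the same direction, 52 higher and 53 lower. Protein-coding genes and their own nearest protein-coding genes shared a direction in 1536 of 2190 such pairs (70.1%) and in 3272 of 5325 (61.4%). Transcripts beyond the distance limit did so with their nearest gene in 63 of 78 pairs (80.8%) and in 75 of 109 (68.8%). Transcript and gene come from the same 9 libraries and both steps share the DP libraries, so these shares are descriptions with no test.

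**Figure D2:**
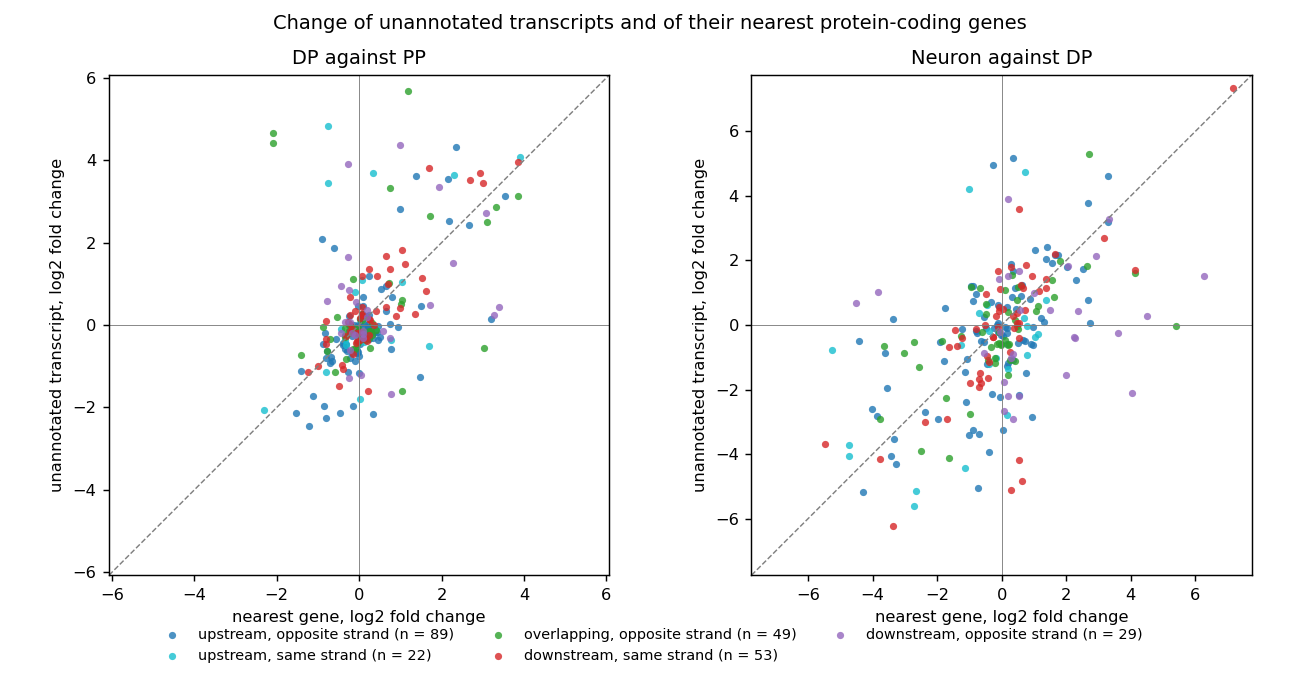
Log2 fold change of the nearest gene (x axis) and of the unannotated transcript (y axis) in each of the 242 pairs with both tested, for DP against PP (left) and Neuron against DP (right); colours give the position and the dashed line equal change. Red points, downstream on the same strand, follow the diagonal most in the left panel (r = 0.86), and purple points, downstream on the opposite strand, least in the right panel (r = 0.09).

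The correlation of transcript with gene is given by position. Across pairs, which are not independent replicates, Pearson's r between the log2 fold changes of transcript and gene was 0.51 from PP to DP and 0.55 from DP to Neuron (n = 242). For 53 transcripts downstream on the same strand it was 0.86 and 0.72, and all 15 pairs in which both passed from PP to DP shared a direction. For 89 head-to-head pairs it was 0.67 and 0.60, with 17 of 20 and 43 of 53 pairs in the same direction, and for the 52 of these under 1000 bases apart 0.85 and 0.62. For 29 transcripts downstream on the opposite strand it was 0.28 and 0.09, with 4 of 5 and 9 of 15. Overlapping pairs gave 0.23 and 0.60 (n = 49) and pairs upstream on the same strand 0.43 and 0.51 (n = 22), so the order of positions was not the same in both steps. Protein-coding neighbours gave 0.26 and 0.22 (n = 10665), and those head-to-head under 1000 bases 0.40 and 0.25 (n = 1035).

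**Figure D3:**
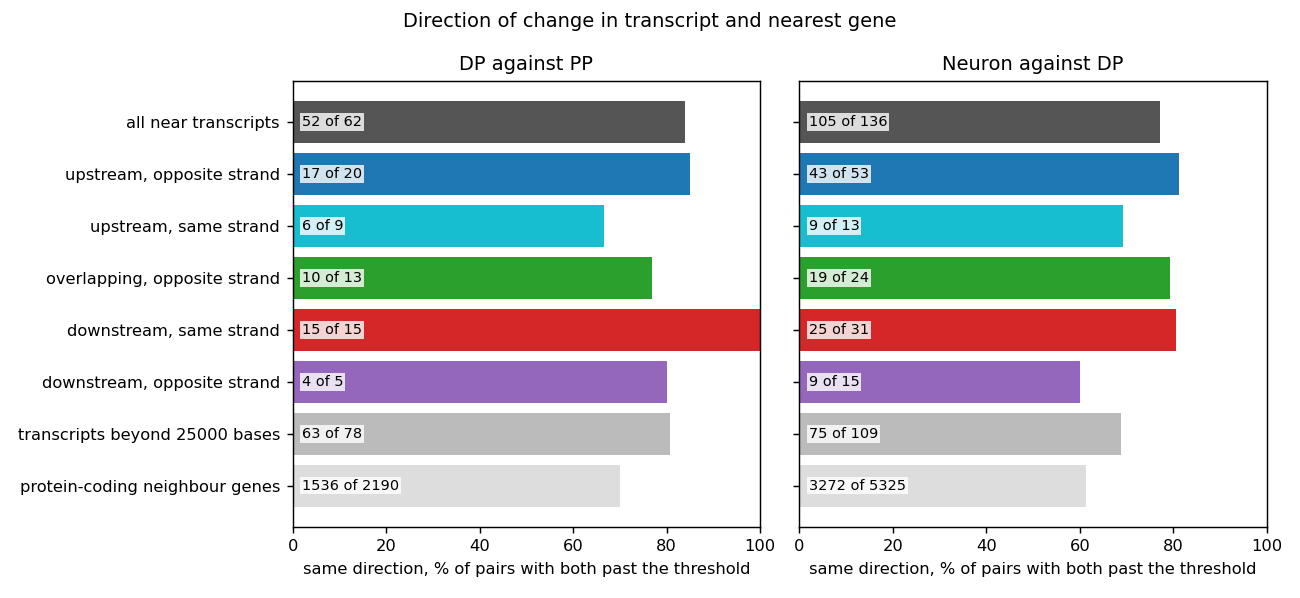
Share of pairs, in % of those with both members past the threshold, in which transcript and nearest gene changed in the same direction, for DP against PP (left) and Neuron against DP (right); the counts stand on the bars. The bars run from 66.7% to 100% for near transcripts in the left panel and from 60.0% to 81.1% in the right, with protein-coding neighbours at 70.1% and 61.4%.

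A direct test of the ratio of transcript to gene in each library, over all 431 pairs near and far, called 58 of the 242 near pairs from PP to DP (24.0%), with 24 transcripts higher relative to the gene and 34 lower; the background over the 431 pairs was 32.7% (16.5% higher and 16.2% lower). From DP to Neuron it called 145 (59.9%), with 59 higher and 86 lower, beside a background of 62.6% (28.8% higher and 33.9% lower). Among the positions of near pairs, the share called was lowest for transcripts downstream on the same strand, 15.1% and 45.3%. It was highest for those downstream on the opposite strand, 37.9% and 75.9%. The near pairs are themselves part of the 431. Of the 189 far pairs alone, 83 (43.9%) and 125 (66.1%) were called. So in the step into Neuron the ratio was called in the larger part of near pairs, 59.9% against 66.1% of far pairs. The difference between near and far pairs was not tested. Most of the near pairs with both members called still shared a direction.

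Genes of transcription factors were the neighbours of 17 members, from a list of such genes of cortical development, and 15 of these members were tested. From PP to DP 5 were higher and 4 lower, beside a background of 21.3% and 20.2% over all features, and all 9 moved in the direction of their gene. From DP to Neuron 1 was higher and 10 were lower, beside 33.1% and 34.2%; 9 of these 11 moved with the gene and 2 against it. The ratio of transcript to gene was called in 4 of the 15 pairs in the first step and in 10 in the second. Their median log2 fold change was 0.43 and -2.19 in the steps, against -0.02 and -0.04 over all features. Markers of radial glia and of intermediate progenitors also fell from DP to Neuron.

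Neurog2, the proneural factor that drives cortical progenitors towards neurons, had 2 members. XLOC_032356 (mm9 chr3:127328067-127338588) overlaps it on the opposite strand and read 136, 113 and 132 CPM in PP, 198, 173 and 208 in DP, with 26.8, 23.7 and 26.4 in Neuron. It rose 1.52-fold and fell 7.53-fold (adjusted p = 0.000316 and 4.55e-10), beside 2.06-fold and 13.7-fold for Neurog2, and 24.5% of its exonic length is shared with the gene. XLOC_031073, 5251 bases downstream on the same strand with no shared exon, read 0.269, 0.427 and 0.267 CPM, then 1.15, 0.814 and 1.47, then 0.0234, 0.102 and 0.0515. It rose 3.51-fold and fell 17.9-fold (adjusted p = 0.00119 and 5.05e-06), and its ratio to Neurog2 did not pass the test in either step (adjusted p = 0.222 and 0.768).

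Neurod2, a factor of neuronal differentiation, is overlapped by XLOC_006907, 6 exons on the opposite strand. The transcript read 18.7, 10.2 and 8.24 CPM in PP, 89.4, 82.7 and 97 in DP, with 238, 244 and 234 in Neuron, so the groups were apart at each step. It rose 7.31-fold and 2.66-fold (adjusted p = 2.42e-06 and 8.66e-05) and Neurod2 10.1-fold and 2.96-fold. The shared exonic bases, 3087, are 18.4% of the transcript's exonic length but nearly all of the 3142 exonic bases of Neurod2. Without knowledge of the strand used in counting, the reads of transcript and gene cannot be told apart. XLOC_006907 was the 1 member of the list that was higher in Neuron than in DP.

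Emx1, a homeobox gene of the dorsal telencephalon, lies 8045 bases downstream of XLOC_040247 (mm9 chr6:85115853-85129387) on the same strand. The transcript read 10.9, 9.08 and 13.7 CPM in PP, 24.2, 18.3 and 26.7 in DP, with 1.38, 0.691 and 1.18 in Neuron. From PP to DP both rose, 2.05-fold and 2.08-fold (adjusted p = 0.00151 and 1.63e-06). From DP to Neuron the transcript fell 21.4-fold and Emx1 2.22-fold, so that the log2 ratio fell by 3.26 ± 0.256 (SE) (adjusted p = 1.53e-07).

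XLOC_034392, which starts 11105 bases from Prdm16 on the opposite strand, read 12.2, 8.93 and 12.7 CPM in PP, 2.12, 1.86 and 2.22 in DP, with 0.141, 0.163 and 0.0515 in Neuron. It fell 5.46-fold and 16.6-fold (adjusted p = 2.19e-06 and 2.2e-07) and Prdm16 fell 2.32-fold and 10.8-fold. It shares 1124 exonic bases with the annotated non-coding RNA Gm13110 on the other strand, which stood at 0.688 ± 0.162 CPM in PP and 0.164 ± 0.0287 in DP.

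**Figure D4:**
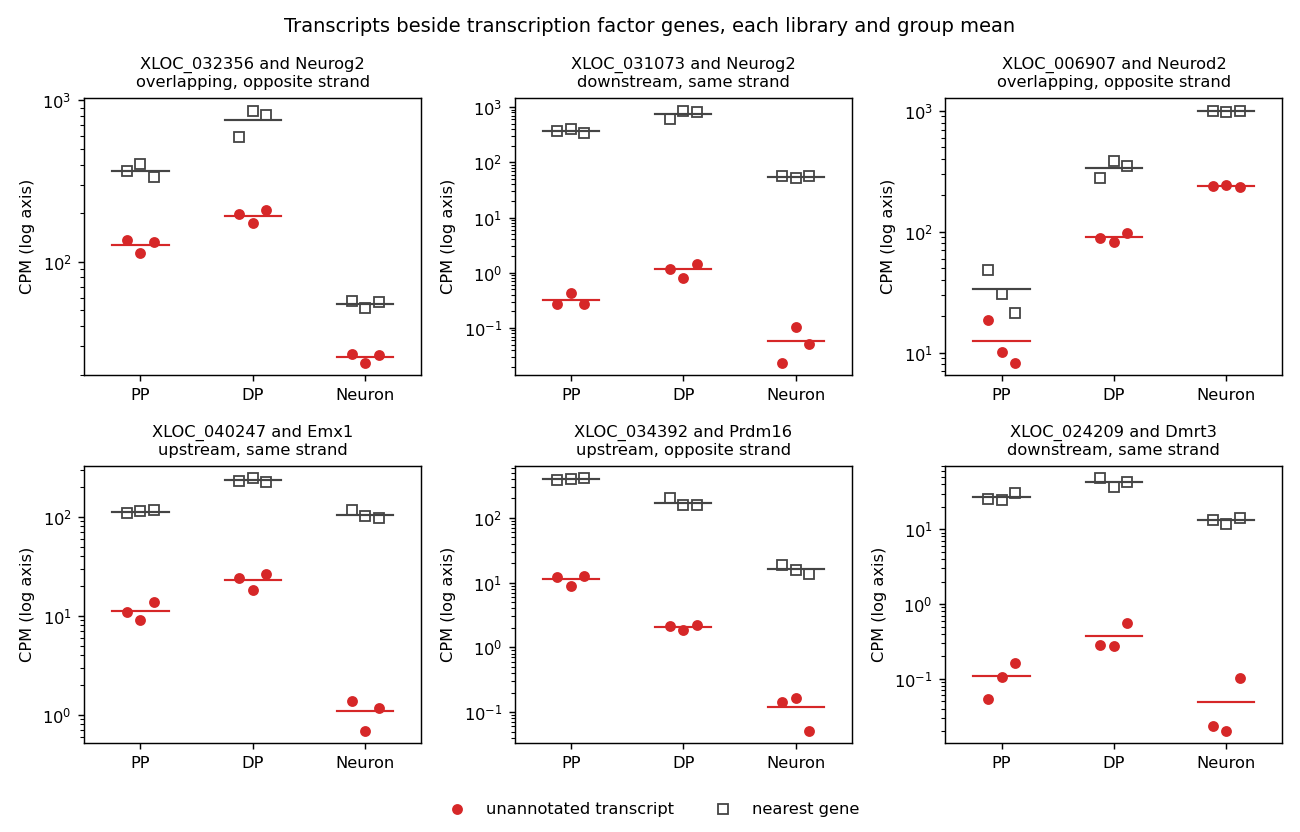
Level in CPM (log axis) of 6 transcripts (filled circles) and of their nearest transcription factor genes (open squares) in the 3 libraries of PP, DP and Neuron, with horizontal lines at group means. In all 6 panels transcript and gene change in the same direction at each step, and in the Emx1 panel the sizes part from DP to Neuron, 21.4-fold against 2.22-fold. XLOC_032356 and XLOC_006907 share exonic bases with Neurog2 and Neurod2, so in these panels the reads of transcript and gene cannot be told apart.

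Beside other genes of the list, XLOC_016387, 6884 bases downstream of Sox21, a SOX factor of progenitors, fell with it from 0.732 ± 0.0839 CPM in PP to 0.336 ± 0.141 in DP (adjusted p = 0.0237; up to 0.099 with a library left out, lost without DP L356, PP L355 or PP L393) and had 3 reads in Neuron. XLOC_024209 beside Dmrt3 was DP-high like Dmrt3, at 0.108 ± 0.0554, 0.369 ± 0.161 and 0.0489 ± 0.0469 CPM, with an adjusted p of 0.0196 for the rise that reached 0.0902 with a library left out (lost without DP L394, PP L222 or PP L355). XLOC_032736 over Pou3f2, a POU factor of upper-layer neurons, fell 4.76-fold into Neuron and Pou3f2 3.27-fold. XLOC_027153, which shares 74.3% of its exonic length with Sox12, fell 1.76-fold from PP to DP with Sox12 at 1.25-fold, and the transcript did not pass from DP to Neuron (adjusted p = 0.0684, and 0.0255 with the sets as a block) where Sox12 rose 2.1-fold. XLOC_037317 beside Barhl2 passed in neither step although Barhl2 rose in both. XLOC_035379, 16893 bases from Nfia, fell 4.57-fold into Neuron (adjusted p = 0.00983) and Nfia rose 1.45-fold.

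Head-to-head pairs with the closest starts allow the look at DNA shown above. There were 38 such pairs under 250 bases, 34 with both tested. From PP to DP 2 of them were called in the same direction and 0 in opposite ones. From DP to Neuron these counts were 12 and 3. Protein-coding neighbours head-to-head under 1000 bases, a wider limit, shared a direction in 120 of 154 pairs with both called (77.9%) from PP to DP. From DP to Neuron they did so in 308 of 475 (64.8%). The difference was not tested. The pairs described next were chosen after their values were seen, from the 13 with a shared direction in either step. XLOC_040392 beside Wnt7a, with its 6 GC boxes, read 1.24, 0.79 and 0.883 CPM in PP, 0.259, 0.116 and 0.289 in DP, with 0.0936, 0.224 and 0.129 in Neuron. It fell 4.4-fold from PP to DP (adjusted p = 0.000723) and Wnt7a 2.92-fold (adjusted p = 1.09e-05), with no overlap of the groups, and the transcript did not pass from DP to Neuron (adjusted p = 0.361).

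XLOC_001300 beside Atp1b1 read 0.725, 0.406 and 0.719 CPM in PP, 1.15, 1.39 and 1.66 in DP, with 6.46, 7.17 and 9.01 in Neuron. It rose 2.28-fold and 5.37-fold (adjusted p = 0.00324 and 1.37e-06) and Atp1b1 rose 2.63-fold in the second step (adjusted p = 6.46e-06). In the ratio test the log2 ratio of XLOC_001300 to Atp1b1 rose by 0.91 and 1.02 (adjusted p = 0.0313 and 0.00942). The first of these calls was lost in 5 other settings and the second in 1. XLOC_008243 beside Tmem107, the pair without any of the 3 motifs, went from 0.174 ± 0.063 CPM in DP to 4 reads in Neuron (adjusted p = 0.00576), while Tmem107 fell 2.13-fold. Without libraries L222, L223 and L224 the adjusted p of that fall was 0.05 and the call was lost. XLOC_011450 beside Dync1h1 read 1.27, 1.34 and 1.3 CPM in DP, with 2.53, 2.44 and 2.4 in Neuron, 1.88-fold higher (adjusted p = 0.000325), and Dync1h1 was 1.51-fold higher (adjusted p = 0.000597).

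XLOC_017095 starts 115 bases from Celsr1, a cadherin of planar cell polarity, and is shown as a pair that changed by like factors. It read 10.7, 10.3 and 11.2 CPM in PP, 9.46, 11.5 and 11.8 in DP, with 1.29, 0.752 and 0.798 in Neuron. It fell 11.6-fold from DP to Neuron (adjusted p = 1.18e-08) and Celsr1 9.98-fold (adjusted p = 9.36e-10), and the ratio did not pass the test in either step (adjusted p = 0.739 and 0.37). XLOC_018772, 9 bases from the repressor gene Bcl6, rose 1.71-fold into Neuron and Bcl6 6.32-fold, so that the log2 ratio fell by 1.89 ± 0.181 SE (adjusted p = 8.88e-07). XLOC_039005, 14 bases from the LIM homeobox gene Lhx5 of Cajal-Retzius cells, had 0 reads in PP, 3 in DP, with 0.562, 0.589 and 0.695 CPM in Neuron, and Lhx5 rose 9.85-fold from DP to Neuron. Markers of Cajal-Retzius cells rose in the same step, and their part in it was not tested.

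Other pairs parted. XLOC_035000, 6099 bases from Tmem38b, an intracellular cation channel gene, read 0.376, 0.214 and 0.185 CPM in PP, 2.71, 3.91 and 4.75 in DP, with 48.2, 56.7 and 64.4 in Neuron. It rose 15.0-fold and 14.9-fold (adjusted p = 1.86e-06 and 6.08e-09), with each group above the one before. Tmem38b differed by 1.2-fold and 1.15-fold (adjusted p = 0.085 and 0.139). The log2 ratio rose by 4.06 ± 0.291 SE and 3.71 ± 0.291 SE (adjusted p = 1.02e-06 and 1.53e-07). The transcript's exons also cover the 404 bases of the pseudogene Gm12468 on the other strand, 1.53% of its exonic length.

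Myt1l, a zinc finger factor of neurons, and Mef2c, a factor of maturing neurons, rose steeply into Neuron while the transcripts beside them did not. XLOC_010782, 1195 bases downstream of Myt1l on the opposite strand, read 0.541, 0.639 and 0.506 CPM in DP, with 0.117, 0.203 and 0.0515 in Neuron, 4.32-fold lower (adjusted p = 0.000355), in a step in which Myt1l rose 16.4-fold from 26.5, 51.1 and 40.2 CPM to 643, 706 and 590 (adjusted p = 1.02e-06). The log2 ratio fell by 6.22 ± 0.548 SE (adjusted p = 4.09e-07). XLOC_013792, antisense within Mef2c, stood at 0.974 ± 0.162, 0.806 ± 0.338 and 0.785 ± 0.205 CPM in PP, DP and Neuron and passed in neither step, while Mef2c rose 42.0-fold into Neuron (adjusted p = 3.18e-11).

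Downstream of Lrrc8b, a subunit gene of volume-regulated anion channels, XLOC_037293 read 1.67, 1.78 and 2.39 CPM in DP, with 0.0234, 0.0813 and 0.0515 in Neuron. It fell 34.6-fold (adjusted p = 9.32e-08) and Lrrc8b rose 1.24-fold (adjusted p = 0.0123). XLOC_037531, downstream of 2410131K14Rik, fell 28.2-fold, from 3.91, 2.93 and 3.09 to 0.141, 0.122 and 0.0773 CPM, and the gene rose 1.55-fold (adjusted p = 3.89e-05). Both lie on the strand of the gene, 9235 and 8596 bases behind it. XLOC_014899, 206 bases from the guanylyl cyclase gene Gucy1b2, did not pass in either step while Gucy1b2 fell 22.8-fold into Neuron (adjusted p = 2.17e-08).

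**Figure D5:**
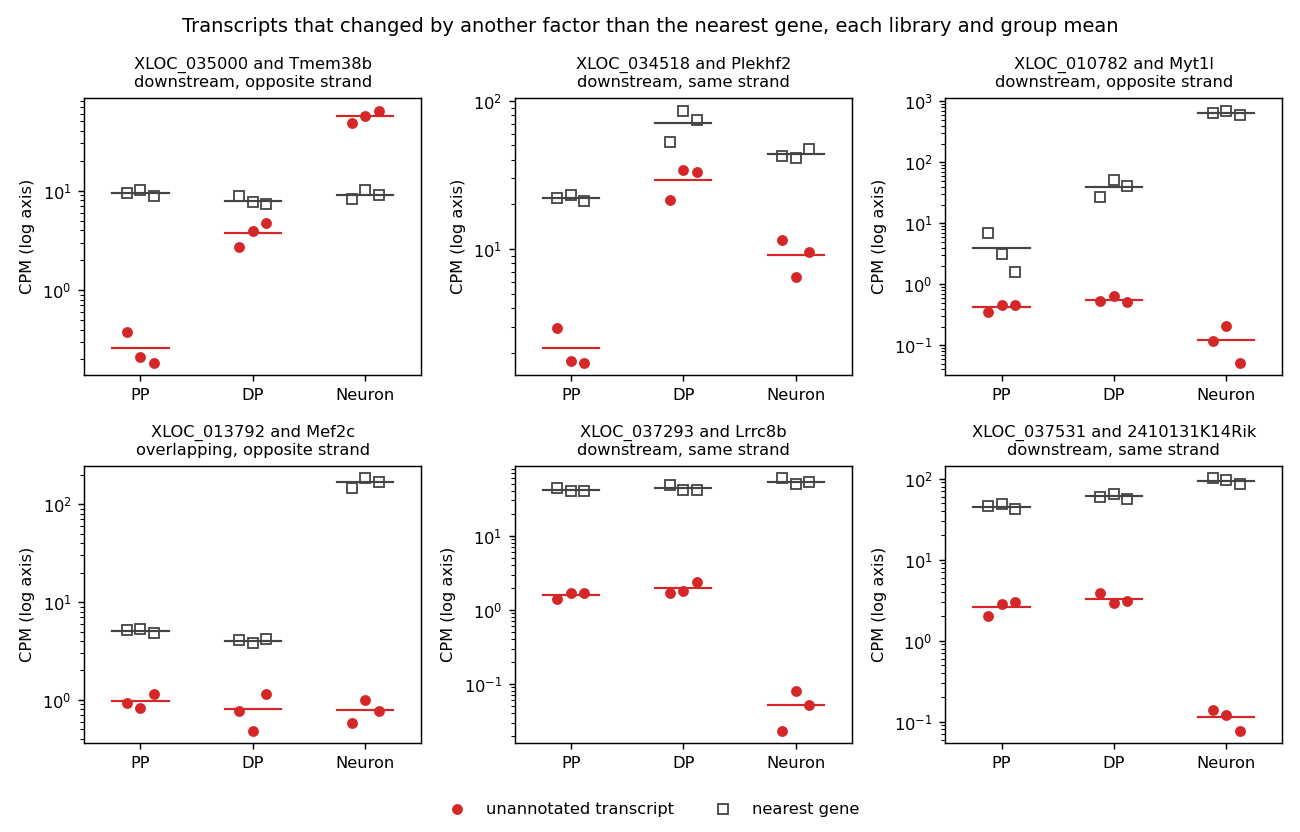
Level in CPM (log axis) of 6 transcripts (filled circles) and of their nearest genes (open squares) in the 3 libraries of PP, DP and Neuron, with horizontal lines at group means. XLOC_035000 climbs from 0.258 to 56.5 CPM beside a gene at 7.38 to 10.3 CPM in every library, and the Myt1l and Mef2c panels show genes that climb into Neuron beside transcripts that do not.

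Some genes had 2 members that moved alike and unlike the gene, whereas the 2 beside Plekhf2 were called in opposite directions from PP to DP. Upstream of Emp1, an epithelial membrane protein gene, XLOC_040806 read 0.0, 0.0214 and 0.0616 CPM in PP, 0.871, 0.91 and 1.01 in DP, with 0.0468, 0.0406 and 0.0773 in Neuron. XLOC_040805 farther upstream had the same order, at 0.0353 ± 0.0446, 0.435 ± 0.101 and 0.0317 ± 0.0172 CPM. They rose 28.5-fold and 10.9-fold from PP to DP (adjusted p = 9.66e-06 and 0.000545, with 4 and 5 reads in PP) and fell 16.5-fold and 13.1-fold into Neuron. Emp1 fell in both steps, 1.68-fold and 26.8-fold (adjusted p = 0.0334 and 7.06e-07).

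The 2 members that overlap F13a1 on the opposite strand likewise rose from PP to DP, where F13a1 fell 4.27-fold from 0.832, 0.406 and 0.986 CPM to 0.141, 0.116 and 0.265 (adjusted p = 0.00341). Microglial markers summed to 6.66 to 8.24 CPM in PP and 4.05 to 4.65 in DP, with 1 of the 3 genes called lower. Pericyte markers summed to 22.3 to 37.5 CPM in PP and 6.05 to 9.23 in DP, with 2 of 2 genes called lower. The part of these cells in the fall of F13a1 was not tested. The 2 members beside Prmt8, a brain arginine methyltransferase gene, were DP-high like Prmt8: XLOC_042098 read 0.0537, 0.0427 and 0.103 CPM in PP, 0.8, 1.2 and 1.28 in DP, with 0.492, 0.305 and 0.258 in Neuron, 15.6-fold higher and 3.1-fold lower (adjusted p = 1.71e-05 and 0.000652), beside 14.5-fold and 1.34-fold for Prmt8.

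Genes of the other lists were counted in the same way. Of 73 axon guidance and adhesion genes 0 were nearest to a member, of 43 cell cycle genes 2, of 54 channel, receptor and synapse genes 1 and of 50 signalling genes 3. Over all 18538 protein-coding genes with at least 1 read the count was 325, and the differences were not tested. The cell cycle genes were Btg2, described above, and the ribonucleotide reductase gene Rrm2, where XLOC_010672 fell into Neuron with the gene, from 0.453 to 0.0627 CPM in mean level. XLOC_029228 beside Snap25, a gene of synaptic vesicle fusion, rose into Neuron with it, from 0.0941 to 0.411 CPM. The signalling genes were Wnt7a, described above, Axin2 and Gas1, and the members beside Axin2 and Gas1 were not tested. The lists were chosen with earlier results of these data known, and a count of 0 says only that no gene of that list is the nearest one of a member.

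In the authors' deposited tables, 60 of the 346 members rose and 48 fell from PP to DP at their adjusted p under 0.05, and 110 were higher and 101 lower in Neuron than in DP. The share called over all features of the deposited tables was not computed, so these counts serve only for comparison with the calls made here. Of the 104 members called here from PP to DP, 98 had the same call in the authors' deposited table and 0 the opposite one, and of the 187 from DP to Neuron 176 and 0. The authors' deposited tables also called 6 and 34 members that had too few reads to be tested here.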

How the data were processed

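Poly-A RNA of sorted cells from mouse cortex was sequenced in 9 libraries, 3 a fraction, each with a single-read and a paired-end run. The authors deposited read counts per gene and per assembled transcript for each run, with exonic lengths and, per the file headers, log2 fold changes, p-values and adjusted p-values of their own comparisons. The submitters' processing notes name TopHat2 2.0.10, Cufflinks 2.1.1, featureCounts 1.4.4, DESeq2 1.4.5 and mm9, with no order; the sources used here do not state whether counting used strand. Counts of both runs were added per library, and 34337209 to 55935128 counts a library set the precision.

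Annotated and unannotated features were fitted together with edgeR 4.0.16 (TMM scaling, filterByExpr, quasi-likelihood test, Benjamini-Hochberg adjustment over 18627 features, threshold 0.05). The ratio of transcript to nearest gene was tested with limma 3.58.1 on log2 CPM ratios with a prior count of 1, adjusted over 431 pairs. Both fits were tested on simulated data. Members, gene lists and tests were chosen with earlier results of these data known. Named members are the 8 highest and 8 lowest fold changes in each step (at least 1 CPM in the higher group, no overlap of groups), the 6 of highest level, those beside listed transcription factors (2 of which are not reported here), the most divergent or opposite pairs, the DP-high and DP-low extremes and those at the distance limit. Pairs with starts under 250 bases apart, the Miat overlap and the members beside Rrm2 and Snap25 were added after their values were seen. Promoter sequences are RefSeq's, build GRCm38.p6, matched by symbol; members' own sequences are not printed. Alternatives were DESeq2 1.42.0, RLE scaling, no filter, each run type alone, fewer libraries, other distance limits, another prior count, voom weights, the nearest gene by its start and, added after the data were seen, members or pairs without shared exons and a replicate block. The block is the 3 sets of consecutive library numbers in the count columns, each with 1 library a fraction, which no label ties to the replicate numbers in the titles. Libraries of a set deviated together from their group means (correlation over 18627 features 0.11 to 0.31 in 9 pairs of libraries, against -0.29 to 0.01 in the 18 across sets).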

Additional observations from a re-analysis of the deposited data

How the results depend on the processing

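Counts of called members were 104 (DP against PP), 187 (Neuron against DP) and 198 (Neuron against PP). With single-read runs alone the first was 59, the DP-high members went from 22 to 13 and the DP-low from 5 to 2. Counting overlapping members only gave 22, 44 and 46, and members within 5000 bases 48, 105 and 107, by construction, since fewer members are counted. Leaving out 1 library gave 89 to 106, 176 to 196 and 198 to 211 calls, 17 to 28 DP-high and 3 to 5 DP-low members, and 43 to 63 and 130 to 151 pairs called by the ratio test. DESeq2 gave 102, 179 and 197 calls, and the other settings stayed within 1.5 times apart from the block described last. Of 4255 recomputed values of named members 4028 kept direction and side of the threshold, 140 lost and 86 gained a call, and 1 reversed. That 1 is the change of XLOC_042098 relative to its nearest gene from DP to Neuron, -1.18 on the log2 scale and 1.38 with the nearest gene by its start, which is another gene. Members with few reads limit the precision, and 71 could not be tested. A replicate block for the 3 sets of consecutive library numbers, added after seeing the data, gave 120, 200 and 207 calls, 26 DP-high and 11 DP-low members in place of 5, and 72 and 150 pairs called by the ratio test. Among recomputed values of named members it gained 13 calls and lost 1, the ratio of XLOC_018284 to its gene from DP to Neuron (adjusted p = 0.0449, and 0.0516 with the block).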
